A study of Homo sapiens with 4 samples.

Results

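The 46 genes described here act in mitosis, the phase in which the copied chromosomes are lined up on the spindle and parted between 2 daughter cells. They were chosen by function, with earlier results of these data known, and their probes were found by gene name or RefSeq transcript. The 46 genes had 61 probes among the 50238 probes of the array, which stand for 30970 genes or transcripts. RNA came from A549, a human lung adenocarcinoma cell line. By their labels the 2 control samples had 0 µM embelin, a plant benzoquinone, and the other 2 samples had 15 µM, all at 4 h. All 4 had been moved to medium with less serum before treatment, no vehicle is named for the controls, and each sample was hybridized to 1 single-colour (Cy3) array. Nothing states that the 2 samples of a group came from separate cultures, so p-values measure only the spread between these samples. All 8 markers fixed for a lung adenocarcinoma line were measured (mean log2 signals of 9.58 to 17.76). Of the 10 markers of blood, endothelial, fibroblast and liver cells 7 were too dim on these arrays to be tested. The 3 others were measured. COL1A1, a collagen of fibroblasts, had log2 signals of 6.38 and 6.28 in the controls and 7.57 and 7.70 with embelin (2.46-fold higher, adjusted p = 0.0535 from limma). CD3E, of T cells, had 5.39 and 4.86 in the controls, of which 1 was well above background, and 7.02 and 5.74 with embelin, and CD14, of monocytes, had 9.40 and 9.68 in the controls and 9.07 and 8.81 with embelin. Of these markers 2 were higher and 1 lower in mean with embelin, none was called after adjustment, and their part in the results was not tested.

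Entry into mitosis is driven by the kinase CDK1 bound to cyclin A or B, and Aurora and Polo-like kinases then build the spindle and mature the centrosomes. Kinetochores tie chromosomes to spindle fibres, the spindle checkpoint holds the cell until every chromosome is tied, and the anaphase-promoting complex then marks securin and the cyclins for destruction. Most of these genes are transcribed late in the cell cycle, and their promoters are known for the CHR element and the CCAAT box, which bind the MuvB complexes (DREAM, B-Myb and FOXM1) and the factor NF-Y. In growing cultures their mRNA level follows both the share of cells in G2 and M and the transcription of the genes within such cells. In bulk RNA fewer cells of a cell cycle phase and less RNA per cell cannot be told apart.

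With embelin the mean signal of all 46 mitosis genes was below that of the controls. Over all 17530 genes or transcripts tested 9858 were lower in mean and 7672 higher. The median log2 fold change was -0.84 over the 46 genes and -0.06 over the 17530 genes or transcripts tested. Every one of the 46 was well above background on all 4 arrays, so that each passed the filter on dim probes in both groups. In 43 of the 46 genes both embelin arrays lay below both control arrays, and in the other 3 (CKS2, BUB3 and MAD2L1) the groups overlapped. The share with embelin below control in this way was 30.7% over all genes with 4 values, and that with embelin above control, seen in 0 of the 46, was 21.1%.

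The size of the difference varied from gene to gene. Of the 46 genes, 17 were at least 2-fold lower in mean (5.96% of all genes tested), 13 were between 1.5-fold and 2-fold lower, and 16 were less than 1.5-fold lower. None was at least 2-fold higher (6.59% of all genes tested). By limma without adjustment for multiple tests, 33 of the 46 were lower at a p under 0.05 (11.3% of all genes) and 0 were higher (8.39% of all genes). The 17 genes that were at least 2-fold lower were all among these 33, and 4.02% of all genes met both conditions. After Benjamini-Hochberg adjustment over all genes tested 2 were called, both lower, where 1.95% of all genes were called in either direction and 0.622% were called lower. The 2 were INCENP and NDC80, and 11 further genes had an adjusted p between 0.05 and 0.1 from limma. With any 1 of the 4 arrays left out the median log2 fold change of the 46 lay between -0.71 and -0.91. In those fits 1 group held a single array. How the calls after adjustment depended on the processing is given at the end.

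**Figure D1:**
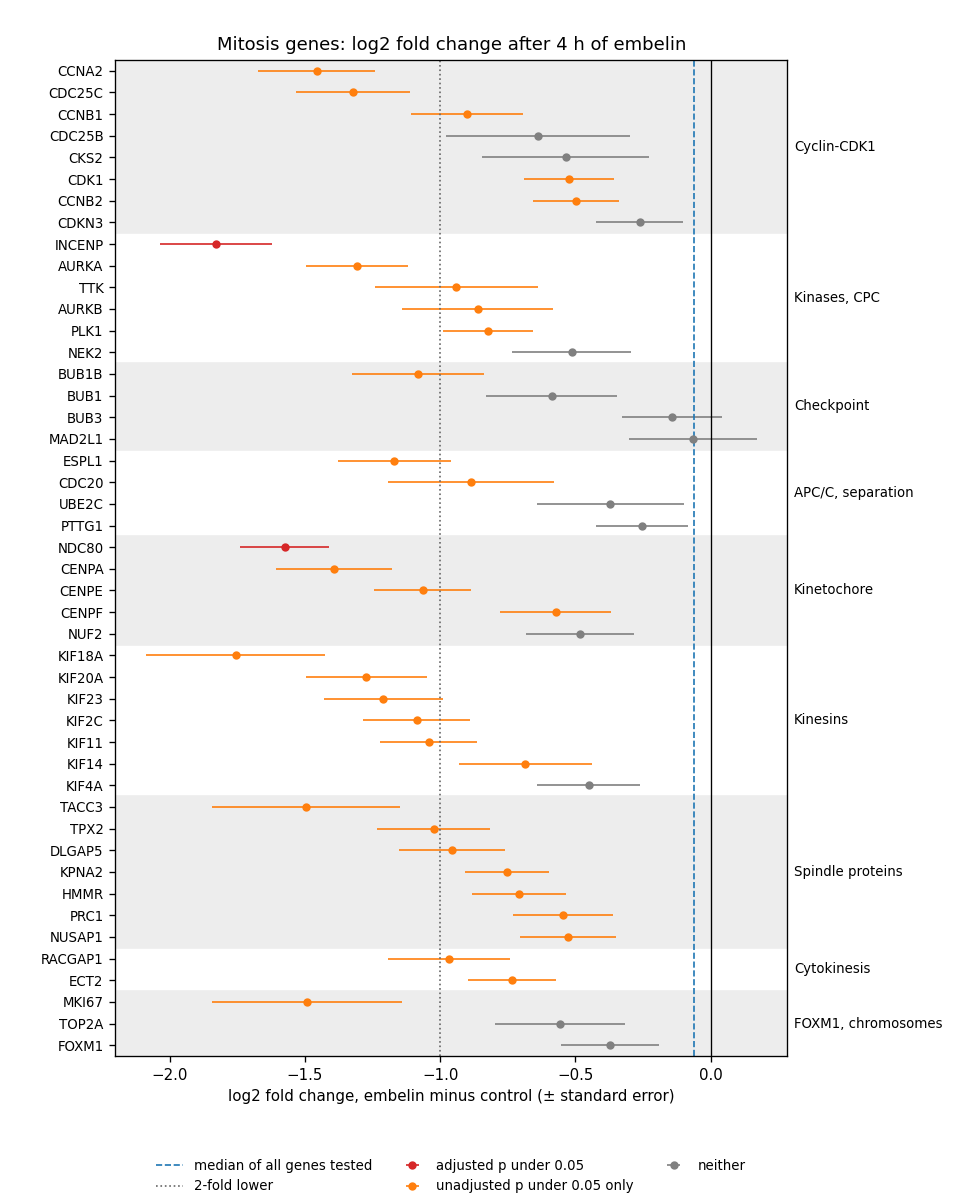
Log2 fold change (embelin minus control, x axis) of the 46 mitosis genes with its standard error from limma (bars), grouped by role. The dashed line is the median of all genes tested (-0.06) and the dotted line marks 2-fold lower. All 46 points lie below 0, and the 2 red points, INCENP and NDC80, passed after adjustment.

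The promoters of 7 of the genes are printed here from the RefSeq table of build GRCh38.p14, from 120 bases before the annotated start site to 4 bases after it. They are the 2 called genes, then KIF18A and MKI67 with further large differences, PLK1 and CCNB2 as long-studied G2/M promoters, and PTTG1 with one of the smallest differences. Capitals mark TTTGAA, the core of the CHR element, and CCAAT, the NF-Y box, on either strand (TTCAAA and ATTGG on the other strand). In MKI67 the 2 motifs share bases, in PTTG1 CCAAT overlaps its own reverse complement, and PTTG1 has 2 windows in the table, of which the one with the lower coordinates is shown.
INCENP, chr11:62123891-62124014 on the plus strand: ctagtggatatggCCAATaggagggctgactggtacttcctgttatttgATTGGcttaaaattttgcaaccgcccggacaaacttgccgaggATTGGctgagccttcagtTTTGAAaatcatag
NDC80, chr18:2571437-2571560 on the plus strand: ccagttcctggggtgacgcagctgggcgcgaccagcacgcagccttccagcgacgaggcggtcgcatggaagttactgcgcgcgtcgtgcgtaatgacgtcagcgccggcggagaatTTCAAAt
KIF18A, chr11:28108153-28108276 on the minus strand: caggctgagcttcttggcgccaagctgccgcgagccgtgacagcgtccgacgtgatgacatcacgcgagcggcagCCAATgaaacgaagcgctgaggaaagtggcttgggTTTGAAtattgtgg
MKI67, chr10:128126420-128126543 on the minus strand: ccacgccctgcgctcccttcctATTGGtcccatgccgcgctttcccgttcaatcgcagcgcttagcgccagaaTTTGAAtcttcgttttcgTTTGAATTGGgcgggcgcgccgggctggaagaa
PLK1, chr16:23678769-23678892 on the plus strand: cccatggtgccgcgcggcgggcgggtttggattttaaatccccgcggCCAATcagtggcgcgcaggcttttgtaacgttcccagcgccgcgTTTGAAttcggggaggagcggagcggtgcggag
CCNB2, chr15:59105026-59105149 on the plus strand: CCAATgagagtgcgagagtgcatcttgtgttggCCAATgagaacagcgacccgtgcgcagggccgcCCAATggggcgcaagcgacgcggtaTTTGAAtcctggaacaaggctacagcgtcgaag
PTTG1, chr5:160421735-160421858 on the plus strand: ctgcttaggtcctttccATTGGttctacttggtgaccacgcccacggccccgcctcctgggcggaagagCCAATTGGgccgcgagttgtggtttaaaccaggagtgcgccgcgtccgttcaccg

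The promoter windows of 300 bases (250 before the start and 50 after it) were searched for both motifs on both strands, and 39 of the 46 genes had at least 1 window, 6 of them several. AURKA, BUB3, FOXM1, RACGAP1, TPX2, TTK and UBE2C had none. TTTGAA was present in 31 of 49 windows (63.3%), compared with 15.2% of all 35116 windows in the table and 10.6% of the windows of genes tested. CCAAT was present in 38 windows (77.6%, against 34.6% and 35% respectively), and both motifs in 27 (55.1%, against 5.9% and 4.32%). TTTGAA was also in 29 of 60 windows of the other mitosis genes described further on (48.3%, both motifs in 35%), in 9 of 30 windows of the regulators of G2/M transcription, in 4 of 27 of the anaphase-promoting complex core and in 3 of 50 of the G1/S and replication genes. Of the 42 TTTGAA matches in mitosis genes 21 began within 75 bases before the start site. INCENP and KIF18A each had one at -10, PLK1 and CCNB2 at -29, and NDC80 at -3 on the other strand. The median log2 fold change was -0.74 over the 28 genes with TTTGAA and -0.90 over the 11 without it. A match of letters describes the window and shows no binding.

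**Figure D2:**
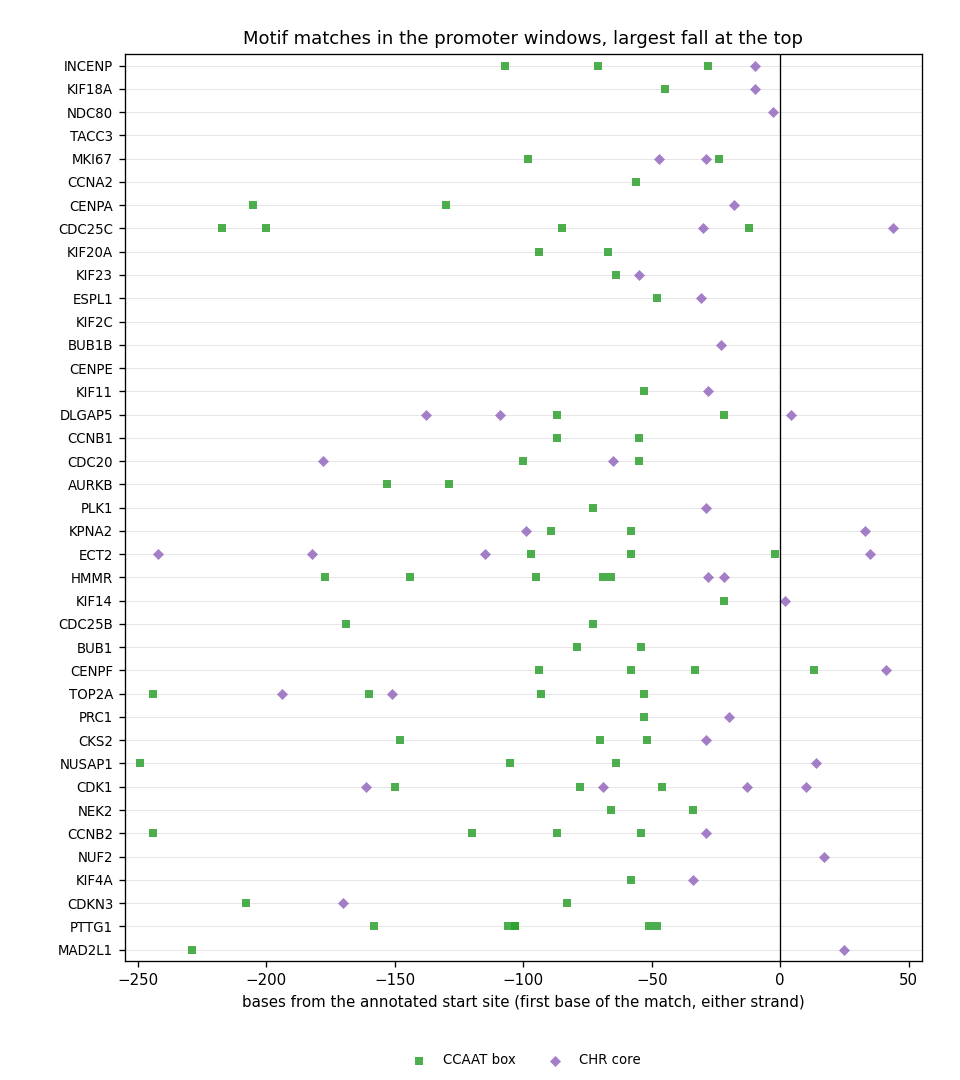
Positions of TTTGAA (CHR core, diamonds) and CCAAT (squares) on either strand in the RefSeq promoter windows of 39 mitosis genes, in bases from the annotated start site (x axis, first base of each match), ordered with the largest difference at the top. Matches of genes with several windows are drawn on 1 line. TTTGAA appears from the gene with the largest difference (INCENP) to that with the smallest (MAD2L1).

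The cyclin and CDK1 group holds the engine of mitotic entry, and its 8 genes had a median log2 fold change of -0.59. CCNA2, which encodes cyclin A2, had log2 signals of 10.67 and 10.94 in the controls and 9.18 and 9.52 with embelin, which gave a difference of -1.46 in log2 (standard error 0.22) with an adjusted p of 0.0652 from limma. CDC25C, the phosphatase that activates CDK1, had 10.05 and 9.81 in the controls and 8.44 and 8.77 with embelin (log2 fold change -1.32, standard error 0.21). For both genes the gap between the groups was several times that between replicates. The other genes of the group differed by less. CCNB1 (cyclin B1) was at -0.90, CDC25B at -0.64, CKS2 (a small CDK-binding protein) at -0.54, CDK1 itself at -0.52, CCNB2 (cyclin B2) at -0.50 and CDKN3, a phosphatase of CDKs, at -0.26 in log2 fold change. CDC25B, CKS2 and CDKN3 did not pass at an unadjusted p of 0.05. The difference between cyclin A2 and its partner CDK1 was not tested.

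The mitotic kinases and INCENP, the scaffold on which Aurora B sits in the chromosomal passenger complex, had a median of -0.90. INCENP had the largest difference of all 46 genes, with log2 signals of 11.36 and 11.34 in the controls and 9.72 and 9.32 with embelin. It fell by 1.83 on the log2 scale (standard error 0.21, adjusted p = 0.0469 from limma), which is 3.55-fold. Its control arrays almost coincided, and the gap between its embelin arrays was small beside the fall. The call depended on the processing. The adjusted p from limma was 0.0575 with quantile normalization, 0.0533 with the authors' deposited probe values and 0.0219 with normexp background correction.
AURKA, the centrosomal Aurora kinase, had 12.82 and 12.96 in the controls and 11.45 and 11.72 with embelin (log2 fold change -1.31, standard error 0.19, adjusted p = 0.0613 from limma). AURKB, the kinase held by INCENP, was at -0.86, TTK (the checkpoint kinase MPS1) at -0.94 and PLK1 (Polo-like kinase 1) at -0.82, each with an unadjusted p under 0.05 from limma. NEK2, a kinase of centrosome separation, was at -0.51 and did not pass.

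The centromere and kinetochore genes had a median of -1.06. Of the 5, 3 were at least 2-fold lower (17 of all 46, and 5.96% of all genes tested). NDC80 encodes the subunit that grips spindle fibres, and its log2 signals were 11.95 and 11.83 in the controls and 10.26 and 10.37 with embelin. It fell by 1.57 on the log2 scale (standard error 0.17, adjusted p = 0.0440 from limma), a 2.98-fold difference with replicates close together in both groups. NUF2, which pairs with NDC80 in the same complex, was at only -0.48, with 12.27 and 12.21 in the controls and 11.58 and 11.93 with embelin. CENPA, the histone H3 variant of centromeres, had 10.49 and 10.15 in the controls and 8.80 and 9.05 with embelin (log2 fold change -1.39, standard error 0.21). CENPE, a kinetochore motor, had 11.83 and 11.62 in the controls and 10.59 and 10.73 with embelin, a log2 fold change of -1.06. CENPF, a large kinetochore protein of G2 and M, was at -0.57.

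The kinesins, motors that move along microtubules, had a median of -1.09. Of the 7, 5 were at least 2-fold lower (17 of all 46, and 5.96% of all genes tested). KIF18A, which dampens chromosome movement, had log2 signals of 10.72 and 10.25 in the controls and 8.38 and 9.08 with embelin. Its log2 fold change of -1.76 (standard error 0.33) was second to that of INCENP, but its replicates differed more and its adjusted p was 0.0930 from limma. KIF20A and KIF23 act in cytokinesis. KIF20A had 11.74 and 11.68 in the controls and 10.21 and 10.66 with embelin (log2 fold change -1.27), and KIF23 had 13.61 and 13.57 in the controls and 12.15 and 12.60 with embelin (-1.21). In both the control arrays lay close together and well above the embelin arrays. KIF2C, which takes apart microtubules at centromeres, had 13.10 and 12.76 in the controls and 11.80 and 11.88 with embelin (-1.09). KIF11 (Eg5, which pushes the spindle poles apart) had 11.17 and 10.97 in the controls and 9.94 and 10.11 with embelin (-1.04). KIF14 was at -0.68 and KIF4A, a chromosome-bound kinesin, at -0.45, the latter without passing at an unadjusted p of 0.05.

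**Figure D3:**
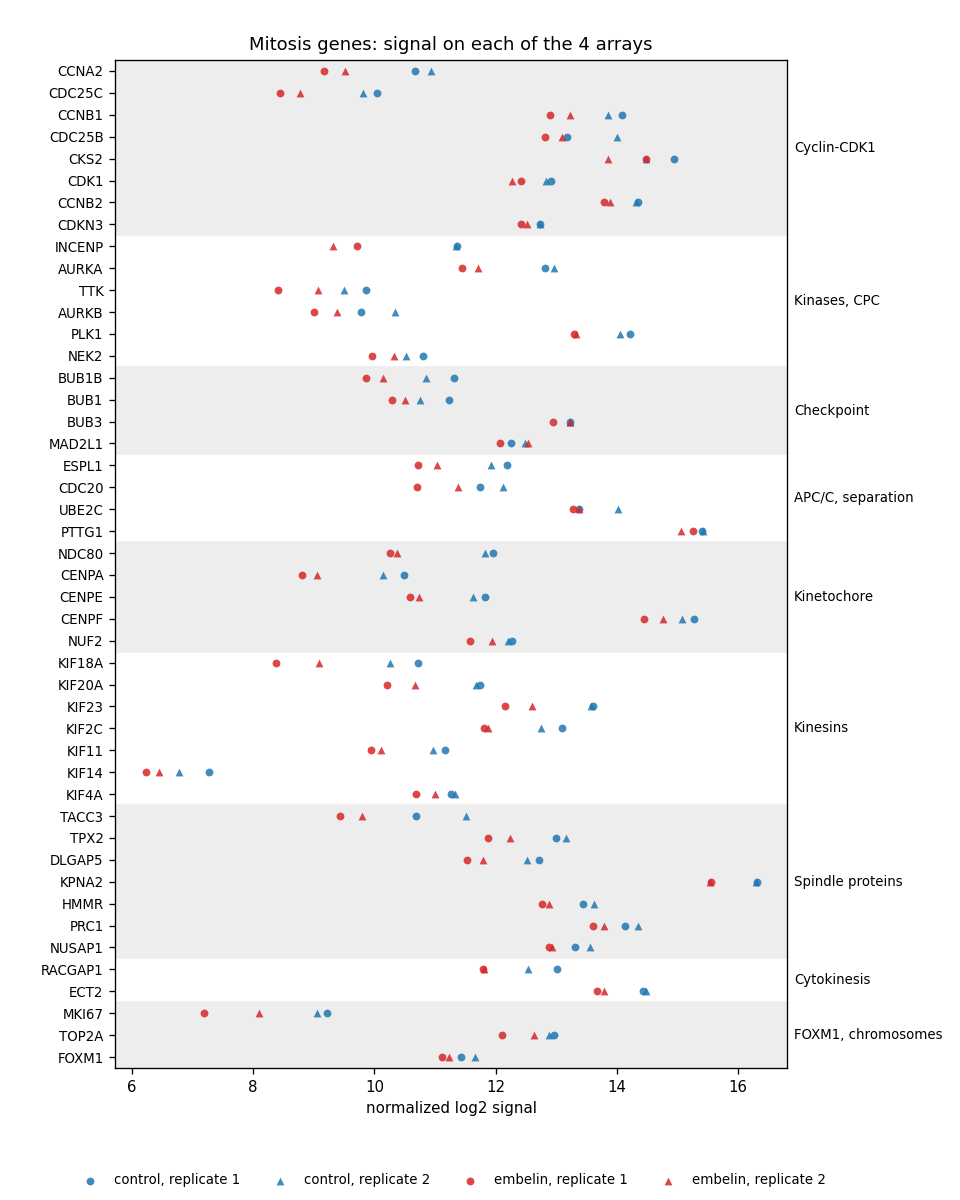
Normalized log2 signal (x axis) of the 46 mitosis genes on the 2 control arrays (blue) and the 2 embelin arrays (red), with circles for replicate 1 and triangles for replicate 2, grouped by role. In 43 genes both red symbols lie left of both blue ones, and CKS2, BUB3 and MAD2L1 are the exceptions.

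The spindle-associated proteins were lower throughout, with a median of -0.75. All 7 passed at an unadjusted p of 0.05 in limma (33 of all 46, and 11.3% of all genes tested, were lower in this way). TACC3, which stabilises spindle fibres, had log2 signals of 10.695 and 11.52 in the controls and 9.43 and 9.79 with embelin. Its log2 fold change of -1.50 had a standard error of 0.35, since the controls lay far apart. TPX2, which activates Aurora A on the spindle, had 13.001 and 13.16 in the controls and 11.87 and 12.24 with embelin (-1.02). The log2 fold changes of the others were -0.96 for DLGAP5 (HURP), -0.75 for KPNA2 (an importin alpha that carries spindle factors), -0.71 for HMMR, -0.55 for PRC1 (the bundler of the midzone) and -0.53 for NUSAP1. KPNA2 had the tightest replicates of these, at 16.30 and 16.29 in the controls and 15.56 and 15.54 with embelin. TPX2 was the last gene past the 2-fold line, at 2.03-fold, and RACGAP1 the nearest below it, at 1.96-fold.

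The 2 cytokinesis regulators act on the GTPase RhoA, ECT2 as its exchange factor and RACGAP1 in the centralspindlin complex. RACGAP1 had 13.01 and 12.54 in the controls and 11.80 and 11.81 with embelin (log2 fold change -0.97), and ECT2 had 14.43 and 14.49 in the controls and 13.66 and 13.78 with embelin (-0.74). Both passed at an unadjusted p of 0.05 in limma. Among the genes of sister chromatid separation, ESPL1 (separase, the protease that cuts cohesin) had 12.18 and 11.92 in the controls and 10.73 and 11.04 with embelin (log2 fold change -1.17, standard error 0.21). CDC20, the activator of the anaphase-promoting complex, had 11.74 and 12.12 in the controls and 10.71 and 11.38 with embelin (-0.89, standard error 0.31). UBE2C, the E2 enzyme of that complex, and PTTG1 (securin, the inhibitor of separase) differed less, at -0.37 and -0.25, and neither passed without adjustment.

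The spindle checkpoint, with 4 genes, had the median nearest to 0 of the roles as grouped here, at -0.37. The checkpoint kinase TTK, at -0.94, was counted with the mitotic kinases, so this rank depends on the grouping. BUB1B (BubR1) had log2 signals of 11.32 and 10.86 in the controls and 9.86 and 10.15 with embelin, which differ by -1.08 in log2 (standard error 0.24). BUB1, a checkpoint kinase at kinetochores, had 11.24 and 10.75 in the controls and 10.30 and 10.51 with embelin (-0.59). BUB3 had 13.22 and 13.23 in the controls and 12.94 and 13.23 with embelin, and MAD2L1 (MAD2) had 12.26 and 12.48 in the controls and 12.07 and 12.54 with embelin. The groups of BUB3 and MAD2L1 overlapped, with log2 fold changes of -0.14 (standard error 0.18) and -0.07 (standard error 0.24). That of MAD2L1 was 0.04 without control replicate 2 and 0.17 without embelin replicate 1. MKI67, the proliferation antigen Ki-67 that coats mitotic chromosomes, had 9.21 and 9.06 in the controls and 7.20 and 8.10 with embelin (-1.49, standard error 0.35). TOP2A, which untangles sister chromatids, had 12.97 and 12.88 in the controls and 12.11 and 12.63 with embelin (-0.56). FOXM1, the transcription factor that drives many of these genes, was at -0.37 with 11.42 and 11.66 in the controls and 11.11 and 11.23 with embelin. Neither TOP2A nor FOXM1 passed at an unadjusted p of 0.05.

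Several kept probes were available for 11 of the 46 genes, of which the brightest was used. In 10 of these genes every kept probe was lower in mean with embelin, though not all of these probes were bright on every array. NDC80 had a further kept probe at a log2 fold change of -1.27, PLK1 one at -1.01, KIF11 one at -0.78 and RACGAP1 one at -0.84. That of NDC80 was dim and not well above background on embelin replicate 1, so its size is uncertain. The further probes of CCNB2 and NEK2 were nearer to 0 than the brightest, at -0.15 and -0.36, and those of CENPF, ECT2 and NUSAP1 lay between -0.71 and -0.61. BUB3 was the exception, with 0.23, 0.03 and 0.55 in log2 for its 3 dimmer kept probes, so its direction depended on the probe. ESPL1 had a dim further probe without a value on embelin replicate 1. That probe had log2 signals of 3.965 and 6.90 in the controls and 4.12 on embelin replicate 2, so its lower mean rests on 1 embelin array. With the mean over both probes the log2 fold change of ESPL1 was 0.41 in place of -1.17. The only probe not kept, a dim probe of ECT2, was at 0.50.

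The 4 arrays did not contribute equally. Embelin replicate 1 was below embelin replicate 2 in 41 of the 46 genes, compared with 64.4% of all genes with 4 values, and control replicate 1 was below control replicate 2 in 17 (43.2% of all genes). The share of probes well above background was 49.9% on both control replicate 2 and embelin replicate 1, against 66.7% on control replicate 1 and 66.3% on embelin replicate 2, while the median local background was alike on all 4 arrays (23 to 25 intensity units). The part of this in the result was not tested beyond the following values. Between control replicate 2 and embelin replicate 1 the signal was lower in 45 of the 46 genes with a median of -0.91, and between control replicate 1 and embelin replicate 2 in 44 with a median of -0.78, while 55.8% and 55.2% of all genes were lower. On the slide the 2 embelin arrays sat between the 2 control arrays. With slide position as a linear covariate limma called 0 of the 46 genes and 0 of all genes tested after adjustment. Before adjustment 27 of the 46 were lower at a p under 0.05, a share that was not counted over all genes in that fit. Position was balanced between the groups, so this covariate could not move the log2 fold changes of the 46 genes. It left fewer degrees of freedom for the spread, and the part of position in the result was not tested further.

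Genes with dimmer probes tended to differ more. Over the 46 genes the mean log2 signal and the log2 fold change had a Pearson's r of 0.50 and a Spearman's rho of 0.53, whereas r was -0.01 over all genes tested. These correlations are across genes, which share arrays and are not independent replicates. Brightness also depends on the probe, and whether it played a part in the spread of the fold changes was not tested. Of the 46 genes 25 were above the 75th percentile of mean signal, and the median log2 fold change of all genes above it was -0.04.

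**Figure D4:**
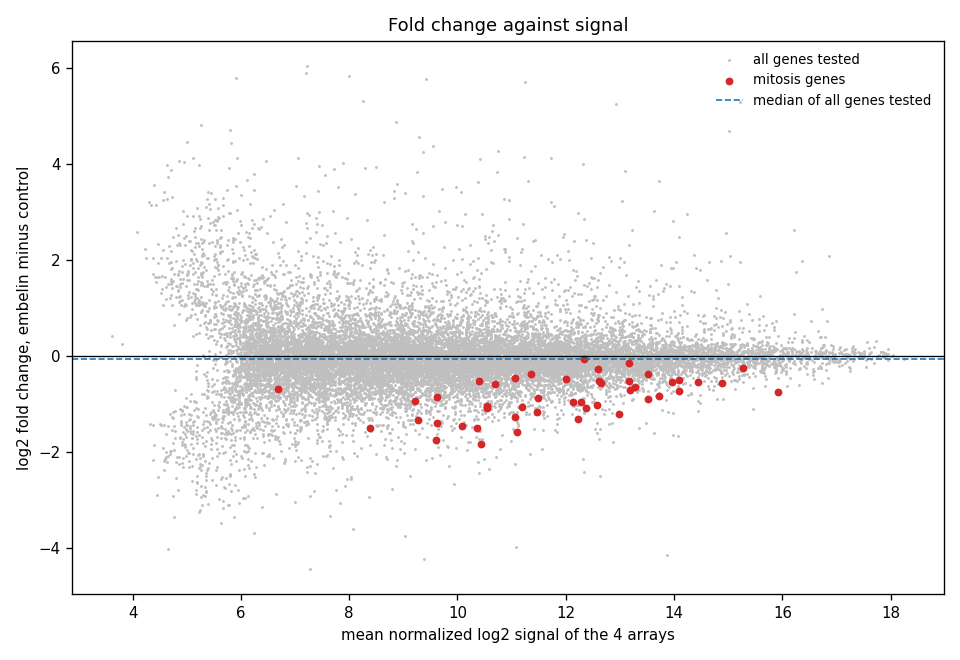
Log2 fold change (embelin minus control, y axis) against the mean normalized log2 signal of the 4 arrays (x axis) for all 17530 genes tested (grey) and the 46 mitosis genes (red). The red points lie below 0 over the whole range of signal, and the dashed line marks the median of all genes (-0.06).

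Further genes of the cell division programme were taken from lists written by function, with earlier results of these data known. Their counts are therefore descriptions only. Of 60 other measured mitosis genes 55 were lower and 5 higher (9858 and 7672 of 17530 over all genes tested), with a median log2 fold change of -0.62. Without adjustment 31 were lower and 0 higher at a p under 0.05 in limma (11.3% and 8.39% of all genes tested). After adjustment 3 were called, all lower, where 0.622% of all genes were called lower. These were CDC25A, which activates CDKs at S phase entry and in mitosis (log2 fold change -2.15, adjusted p = 0.0344 from limma), PSRC1, a spindle protein (-2.12, adjusted p = 0.0349), and GTSE1, a microtubule-binding protein of G2 phase (-1.45, adjusted p = 0.0469). WEE1, the kinase that holds CDK1 inactive, was the highest of the list at 0.65 and did not pass without adjustment.

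The core subunits and activator FZR1 of the anaphase-promoting complex did not share this shift, with a median of -0.02. Of these 15 genes 10 were lower in mean (9858 of 17530 over all genes tested). At an unadjusted p under 0.05 in limma 1 was lower and 1 higher (11.3% and 8.39% of all genes tested). Their largest log2 fold changes were -1.11 for CDC26 (adjusted p = 0.164 from limma) and 0.80 for ANAPC2, whose groups overlapped. Of 44 measured G1/S and replication genes 41 were lower in mean (9858 of 17530 over all genes tested), with a median of -0.42. At an unadjusted p under 0.05 in limma 17 were lower and 0 higher (11.3% and 8.39% of all genes tested). The largest differences were in FEN1, the flap endonuclease (-1.56), and CCNE1, cyclin E1 (-1.39). None of the list was called after adjustment by limma, where 1.95% of all genes were called. The difference between the lists was not tested.

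**Figure D5:**
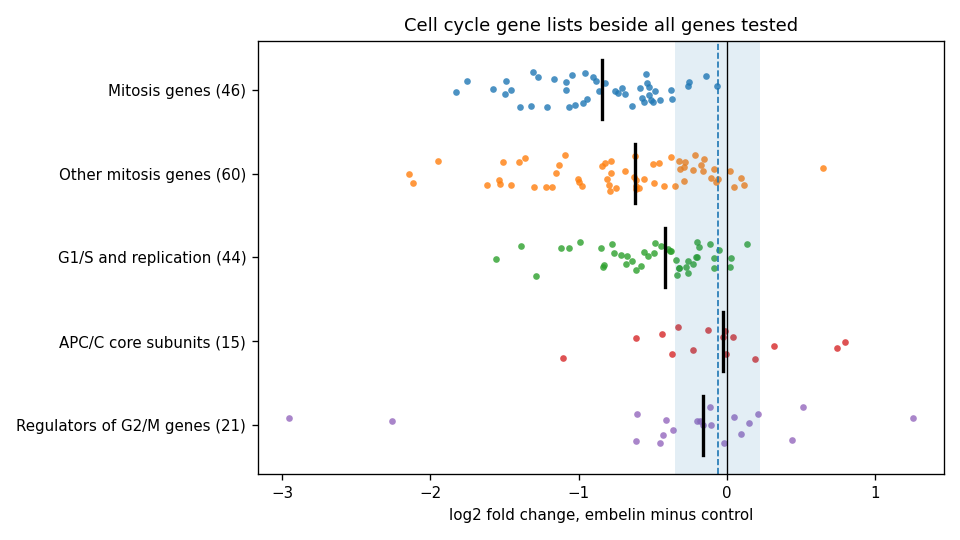
Log2 fold change (embelin minus control, x axis) of single genes (points) in 5 lists, with the number of measured genes in brackets and the list's median as a black bar. The blue band spans the middle 50% of all genes tested and the dashed line is their median (-0.06). The bars for mitosis genes (-0.84), other mitosis genes (-0.62) and G1/S genes (-0.42) lie left of the band, and those for the anaphase-promoting complex core and the regulators lie inside it.

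Among 21 measured regulators of G2/M transcription 14 were lower and 7 higher (9858 and 7672 of 17530 over all genes tested), with a median of -0.16. E2F2, an activating E2F factor, had log2 signals of 12.17 and 12.23 in the controls and 9.70 and 10.19 with embelin, and it was called after adjustment (log2 fold change -2.26, adjusted p = 0.0413 from limma). E2F8, a repressing E2F factor, had 7.76 and 7.35 in the controls and 3.99 and 5.22 with embelin, where only 1 of the 2 arrays was well above background, so no fold is given. MYBL2 (B-Myb), LIN9 of the MuvB core and E2F1 had log2 fold changes of -0.02, -0.20 and 0.05, each smaller than 2 standard errors. LIN37, also of the MuvB core, was at 0.44, NFYB of NF-Y at -0.62 and RB1 at 0.51. Each of LIN37, NFYB and RB1 had an unadjusted p under 0.05 from limma. At that threshold 3 of the 21 regulators were lower and 3 higher (11.3% and 8.39% of all genes tested). CDKN1A, which encodes the CDK inhibitor p21, had 12.12 and 12.11 in the controls and 13.27 and 13.47 with embelin, so that embelin was higher by 1.25 in log2 (standard error 0.17) with an adjusted p of 0.0570 from limma. Both of its embelin arrays lay above both controls, opposite to the mitosis genes. This was so in 3 of the 21 regulators, CDKN1A among them, and in 21.1% of all genes with 4 values.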

How the data were processed

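RNA of 2 control and 2 embelin samples of A549 cells was measured on 1 slide of Agilent arrays. The authors deposited scanner intensities made, per the file headers, with version 10.7.3.1 of Feature Extraction, background-subtracted and detrended within each array but not normalized between arrays, and a table of the same intensities per probe. Here intensities were scaled to a common 75th percentile over non-control spots (before scaling 601 to 739), the shift named in the methods, given a floor of 1 and converted to log2. Outlier spots were left out, spots of a probe averaged, and 25978 probes kept that both arrays of either group measured well above background. The brightest kept probe stood for a gene. Probes were named through RefSeq accessions where these matched (28595 of 50238). The groups were tested with limma 3.58.1 under R 4.3.3 (lmFit, then eBayes with a prior of 2.17 degrees of freedom, over 17530 genes) with Benjamini-Hochberg adjustment. The code was tested on simulated data. The first simulation put changes like the larger ones here into a small share of genes. It gave no call after adjustment, though most changed genes had an unadjusted p under 0.05 from limma. Wider changes were then added and were partly recovered. Adjustment depends on the share of genes that differ, which is not known for the data, so the simulation does not measure how often a call is missed here. A missing call still says little at this number of arrays. The median pooled SD was 0.21 in log2 over all genes and 0.20 over the mitosis genes. The smallest p of an exact permutation test with 2 arrays a group is 0.333.

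The mitosis genes and the other lists were chosen with earlier results of these data known, so their counts are descriptions beside those of all genes, without a test of the list. All 46 genes are accounted for. Values on every array are given for genes called, genes at least 2-fold changed, the 2 with the largest differences in each role, and BUB3, whose probes differ in sign. NUF2, KPNA2, MAD2L1 and FOXM1 were singled out after their values were seen. Of the other lists the called genes, or else the 2 with the largest differences, and CDKN1A are named. E2F8, WEE1, FZR1, MYBL2, LIN9, E2F1, LIN37, NFYB and RB1 were added after their values were seen. The alternatives tried were normexp background correction (offset 50), quantile normalization, the deposited probe table, no filter or a filter on all 4 arrays, a block for the replicate number, slide position as a covariate, the mean over probes, trend and robust in eBayes, the t-test of the methods and leaving out each array. The percentile was first taken without outlier spots and changed to all non-control spots after values were seen, and the first form was kept as an alternative. The methods name the shift but not the spots over which the percentile was taken. A block for arrays with a like share of probes well above background and a mean over probes with 4 values were added after the values were seen. Promoter sequences are from RefSeq (GRCh38.p14).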

Additional observations from a re-analysis of the deposited data

How the results depend on the processing

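The median log2 fold change of the 46 mitosis genes was negative under every alternative in which it was computed, from -0.71 (without embelin replicate 1) to -0.91 (without embelin replicate 2). Slide position and the blocks by replicate number or by share of probes well above background are balanced between the groups. These terms could not change the median, and both filter alternatives used the same probes, so it stayed at -0.84 in all of them. The number lower at an unadjusted p under 0.05 by limma was 33, and it was 32 with normexp or with quantile normalization, 33 with the deposited table, 24 with no filter on dim probes, 27 with slide position as a linear covariate and 26 with a block that pairs arrays by their share of probes well above background (the background block), and 22 by the methods' t-test. With 1 array left out it was 19 to 28. In these fits the lone array of a group is assumed to vary like the others. Over all genes the share lower at an unadjusted p under 0.05 was 11.3% in the main fit. That share was not counted in any other fit described here, so the counts of the 46 genes there have no background beside them.

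The counts after adjustment were less stable. Of the 46 genes 2 were called, and 6 with normexp, 13 with probes well above background on all 4 arrays and 23 with trend and robust, but 1 with quantile normalization, 1 with the mean over probes, and 0 with the deposited table, no filter, the t-test, slide position, the background block or any 1 array left out (0 to 0). Of the 2 called genes NDC80 alone stayed called with quantile normalization, and INCENP alone with the mean over probes. Fewer genes were tested with the filter on all 4 arrays, and otherwise the cause of the unlike counts was not tested. Over all genes 342 were called, and 697 with normexp, 776 with the filter on all 4 arrays, 1065 with trend and robust, 212 with the deposited table, 476 with the percentile taken without outlier spots, the form used first, and 0 with no filter, the t-test, slide position, the background block or any 1 array left out (0 to 0). With the mean over the kept probes of a gene 30 of the 46 were lower at an unadjusted p under 0.05, and the log2 fold changes of BUB3 and ESPL1 turned to 0.17 and 0.41. The dim second probe of ESPL1 has no value on embelin replicate 1, so the mean there rests on the bright probe alone. After this value was seen, a mean over probes with 4 values was added, in which ESPL1 stayed at -1.17, BUB3 was again at 0.17 and 1 of the 46 genes was called. MAD2L1 turned to 0.04 without control replicate 2 and to 0.17 without embelin replicate 1, within a range of -0.30 to 0.17 over the arrays left out.

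With the replicate number as a block, limma called 0 of the 46 genes and 0 of all genes after adjustment, and 29 of the 46 were lower at an unadjusted p under 0.05. Deviations from the group means of samples with the same number had a correlation of 0.17 over 17304 genes, and with 2 pairs this does not show that the numbers pair the samples.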
